A study of Arabidopsis thaliana with 22 samples.

Results

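U2 spliceosomal RNA was followed through the 5 Arabidopsis thaliana genes named U2.2 (AT3G57645), U2.3 (AT3G57765), U2.4 (AT3G56825), U2.5 (AT5G09585) and U2.6 (AT3G56705). They were taken by locus name, as 5 of the 5224 loci in the deposited tables, and all 5 passed the filter on low counts that left 844 loci to test. Roots of 11-day-old plants had been divided into the differentiation zone (DZ), where cells mature, and the meristematic-elongation zone (MEZ), where they divide and elongate. The mutant proscoop12, in the Ws background and affected in the precursor gene of the secreted peptide SCOOP12, was set beside wild-type Ws, and both received 100 nM SCOOP12 or water as control. The 8 groups, each of 3 libraries unless stated, were proscoop12 DZ with SCOOP12, proscoop12 DZ control, proscoop12 MEZ with SCOOP12, proscoop12 MEZ control, Ws DZ with SCOOP12, Ws DZ control (2 libraries), Ws MEZ with SCOOP12 (2 libraries) and Ws MEZ control. The labels do not give the mutant allele, the number of plants in a sample or whether samples came from separate cultures, so every p-value measures only the spread between these 22 libraries.

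U2 is the small nuclear RNA of the U2 snRNP, the particle that recognises the branch site of an intron before splicing. It pairs with the branch site through the bases GUAGUA near its 5′ end, and the adenosine left unpaired there attacks the 5′ splice site in the first step of splicing. In plants, U2 is encoded by a family of near-identical genes that RNA polymerase II transcribes from a short promoter made of an upstream sequence element and a TATA box. Mature U2 RNA has no poly(A) tail, whereas the labels name an mRNA library kit. Whether the reads came from mature RNA, from precursors or from tailed copies was not tested, and in whole root zones a different mix of cells and a different amount of U2 RNA per cell cannot be told apart.

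The RNAs of the 5 genes are shown because their likeness decides which reads can be assigned to which gene. In the DNA letters of the RefSeq genome (build TAIR10.1), 5′ to 3′, U2.5 carries the branch site recognition sequence in capitals. In the other sequences, capitals mark bases that differ from U2.5.
U2.2 RNA: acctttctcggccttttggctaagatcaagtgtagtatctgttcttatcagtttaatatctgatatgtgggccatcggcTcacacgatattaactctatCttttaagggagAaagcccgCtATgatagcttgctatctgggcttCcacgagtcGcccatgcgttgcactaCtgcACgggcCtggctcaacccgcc
U2.3 RNA: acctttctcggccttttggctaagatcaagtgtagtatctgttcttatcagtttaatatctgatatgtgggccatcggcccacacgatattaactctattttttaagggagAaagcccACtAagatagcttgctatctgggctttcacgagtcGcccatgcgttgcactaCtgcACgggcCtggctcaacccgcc
U2.4 RNA: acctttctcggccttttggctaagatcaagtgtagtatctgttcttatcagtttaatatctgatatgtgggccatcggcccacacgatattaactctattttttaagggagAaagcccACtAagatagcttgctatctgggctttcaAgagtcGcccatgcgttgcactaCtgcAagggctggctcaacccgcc
U2.5 RNA: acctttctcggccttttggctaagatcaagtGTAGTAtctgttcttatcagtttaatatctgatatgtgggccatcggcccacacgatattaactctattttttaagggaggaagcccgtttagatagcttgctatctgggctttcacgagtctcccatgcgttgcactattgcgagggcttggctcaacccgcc
U2.6 RNA: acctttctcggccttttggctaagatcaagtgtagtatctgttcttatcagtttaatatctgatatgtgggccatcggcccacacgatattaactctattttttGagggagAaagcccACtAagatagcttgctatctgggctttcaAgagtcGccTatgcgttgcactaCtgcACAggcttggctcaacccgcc

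U2.5 lies at chr5:2975014-2975208 on the plus strand, and the other 4 genes lie on chromosome 3. The U2 RNA lies at chr3:21346743-21346937 (plus strand) for U2.2 and at chr3:21397422-21397616 (minus strand) for U2.3. It lies at chr3:21041820-21042013 (minus strand) for U2.4 and at chr3:21004495-21004689 (plus strand) for U2.6. The first 79 bases were identical in all 5 genes, branch site recognition sequence included, which starts at base 32. Between pairs of genes the RNAs differed at 3 positions (U2.3 and U2.4, 98.5% identity) to 12 positions (U2.5 with U2.2 or U2.6, 93.8% identity). Counted from base 1 of U2.5, the other 4 genes shared G112A, T120C, T122A, T154G, T171C and G175A, while C80T, T100C, A123T and T145C stood in U2.2 alone. Of the 31-base words in each RNA, 96 of 165 occurred in no other listed transcript for U2.2, 83 of 165 for U2.5, 52 of 165 for U2.6, 38 of 164 for U2.4 and 3 of 165 for U2.3. U2.3 is thus the copy whose RNA can be told from the others at the fewest places. Estimated reads of U2.2 were whole numbers (within 0.01) in 22 of 22 libraries, against 1 of 22 for U2.3 and for U2.5 and 0 of 22 for U2.4 and U2.6, where reads were divided among loci. Whole numbers do not show that U2.2 shared no reads, because its remaining words also occur in other listed transcripts.

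The 90 bases before each RNA are shown because the 5 genes share both promoter elements. Capitals mark the upstream sequence element, searched as CCCACATCG, and the TATA box, searched as TATAAA, on the strand of the gene.
U2.2 upstream: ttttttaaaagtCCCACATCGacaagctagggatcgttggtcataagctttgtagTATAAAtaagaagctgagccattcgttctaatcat
U2.3 upstream: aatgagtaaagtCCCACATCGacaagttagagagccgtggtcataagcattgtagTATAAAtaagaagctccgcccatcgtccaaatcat
U2.4 upstream: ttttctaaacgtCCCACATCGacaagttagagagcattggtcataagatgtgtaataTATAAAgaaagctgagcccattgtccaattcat
U2.5 upstream: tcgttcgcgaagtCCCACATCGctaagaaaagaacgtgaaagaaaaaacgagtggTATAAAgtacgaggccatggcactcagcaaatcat
U2.6 upstream: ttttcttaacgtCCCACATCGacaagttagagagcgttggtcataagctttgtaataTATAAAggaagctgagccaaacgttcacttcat

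The upstream sequence element began at -78 in U2.2, U2.3, U2.4 and U2.6 and at -77 in U2.5, counted back from the first base of the RNA. The TATA box began at -35 in U2.2, U2.3 and U2.5 and at -33 in U2.4 and U2.6. On the gene's strand, CCCACATCG stood in the 90-base windows before 0.1425% of 37897 annotated gene starts, TATAAA in 14.69%, and CCCACATCG followed by TATAAA in 0.08972%. Those windows end at annotated starts and not at a mature RNA, so the shares are not on the same footing as the members. The annotated starts of U2.2, U2.3, U2.4 and U2.6 lie 401, 516, 596 and 236 nt before the RNA. TATATA, the other TATA box spelling searched, was present in 2 of the 5 windows and in 14.24% of all gene starts. Only the same strand is given for the members; on either strand, CCCACATCG stood before 0.1689% of gene starts and TATAAA before 21.94%. These matches describe letters and were not tested for function.

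The transcripts in the deposited tables are longer than the RNA for 4 of the 5 genes: 863 nt for U2.2, 871 nt for U2.3, 883 nt for U2.4 and 551 nt for U2.6, against 195 nt for U2.5. For those 4 genes the listed transcript holds the promoter and downstream sequence as well, so a read from the flanks also counts to the gene. The U2 RNA fills positions 402 to 596 of the U2.2 transcript, 517 to 711 of U2.3, 597 to 790 of U2.4 and 237 to 431 of U2.6. U2.3 shares 591 nt with exons of the protein-coding gene AT3G57770 on the opposite strand, 75 nt of them inside the RNA. U2.4 shares 214 nt with exons of AT3G56820 and AT3G56830 on its own strand, all outside the RNA. Reads from those coding genes could count to U2.3 or U2.4, and the strand that was counted is not given in the sources used here.

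**Figure D1:**
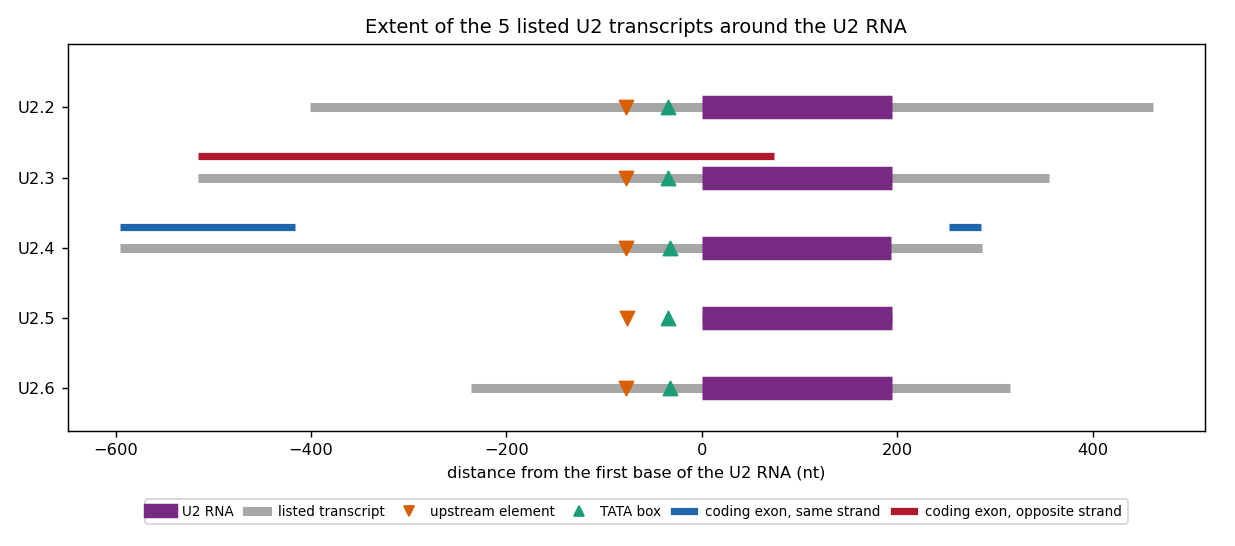
Extent of the 5 listed U2 transcripts, in nucleotides from the first base of the U2 RNA. Grey bars are the listed transcripts, purple boxes the RNA (194 or 195 nt), triangles the upstream element and TATA box, and thin bars the coding exons that overlap on the same (blue) or opposite (red) strand. U2.5 is listed as the RNA alone, while U2.2, U2.3, U2.4 and U2.6 are listed with flanks on both sides.

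The libraries held 474434 to 1575524 estimated reads, of which 209 to 536 fell on the 5 U2 genes together. Most reads lay on ribosomal RNA, 36.6% to 70.4% nuclear and 17.2% to 46.9% organellar. The organellar share was 36.1% to 46.9% in 7 libraries, which were all 5 DZ control libraries and replicate 1 of both DZ SCOOP12 groups, and 17.2% to 25.2% in the other 15. The 4 remaining DZ SCOOP12 libraries had 19.7% to 25.2%. In 2 libraries the sequencing file carries the name of a group that is not on its label. The library labelled proscoop12 DZ control replicate 3 has a file named for Ws DZ SCOOP12, and the library labelled Ws DZ SCOOP12 replicate 3 has one named for proscoop12 DZ control. Their organellar shares were 38.5% in the library labelled proscoop12 DZ control and 20.3% in the library labelled Ws DZ SCOOP12, within the ranges of the other DZ control libraries and of the other DZ SCOOP12 libraries outside replicate 1. The labels were kept, and values without these libraries are given beside some of the results that rest on them. PROSCOOP12 and zone markers are not among the loci analysed here, which include 0 protein-coding loci, so neither genotype nor zone could be checked against its genes.

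Read numbers per gene were small. U2.5 had 66.1, 110 and 179 estimated reads as lowest, median and highest library, U2.3 had 70.7, 100.01 and 172.4, and U2.4 had 38.4, 63.9 and 128. U2.6 had 9.72, 27.8 and 52.1, and U2.2 had 6, 20 and 39. Per listed length, U2.5 had 1452 to 3749 TPM, the deposited measure of transcripts per length and depth, U2.3 95.9 to 209, U2.4 62.7 to 209, U2.6 26.5 to 142 and U2.2 7.34 to 65.7. The TPM of U2.5 stood above that of the other 4 genes in every library, but its listed length is the RNA alone, so TPM does not set the 5 RNAs on the same footing. The values below are normalised read counts as CPM, reads per 1000000, which compare a gene between libraries and not genes with each other. Over the 22 libraries the highest CPM was 8.49 times the lowest for U2.2, 5.33 times for U2.6, 3.04 times for U2.5, 2.84 times for U2.3 and 2.76 times for U2.4.

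The library labelled proscoop12 DZ control replicate 3 had the highest U2 level of all 22. Its 5 genes summed to 712 CPM, against 348 and 372 CPM in the other 2 proscoop12 DZ control libraries. In Ws DZ control the sum was 494 and 317 CPM. The ranges of the 2 groups overlapped, and the lower Ws library lay below all 3 proscoop12 libraries. Among the single genes, replicate 3 of the proscoop12 DZ control had the highest value of all libraries for U2.2 (51.9 CPM), U2.3 (229 CPM), U2.5 (238 CPM) and U2.6 (69.2 CPM), and for U2.4 it had 124 CPM, below 152 CPM in Ws MEZ control replicate 3.

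The group means of the sum were ordered from 486 ± 43.4 CPM in Ws MEZ control (SD, n = 3) and 478 ± 204 CPM in proscoop12 DZ control (n = 3) to 335 ± 37.6 CPM in Ws DZ with SCOOP12 (n = 3) and 309 ± 65.1 CPM in proscoop12 DZ with SCOOP12 (n = 3). Between them stood Ws DZ control with 406 ± 125 CPM (n = 2), proscoop12 MEZ control with 403 ± 17.0 CPM (n = 3), Ws MEZ with SCOOP12 with 394 ± 109 CPM (n = 2) and proscoop12 MEZ with SCOOP12 with 366 ± 57.0 CPM (n = 3). Every group's range overlapped that of the next group in this order. By the labels, all 4 SCOOP12 groups had a lower mean than the control group of the same genotype and zone. By file name, the library with 712 CPM would belong to Ws DZ with SCOOP12 and the one with 365 CPM to proscoop12 DZ control. Means by file name were not computed. Without the 712 CPM library, the proscoop12 DZ controls had 348 and 372 CPM, against 355, 338 and 234 CPM with SCOOP12.

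**Figure D2:**
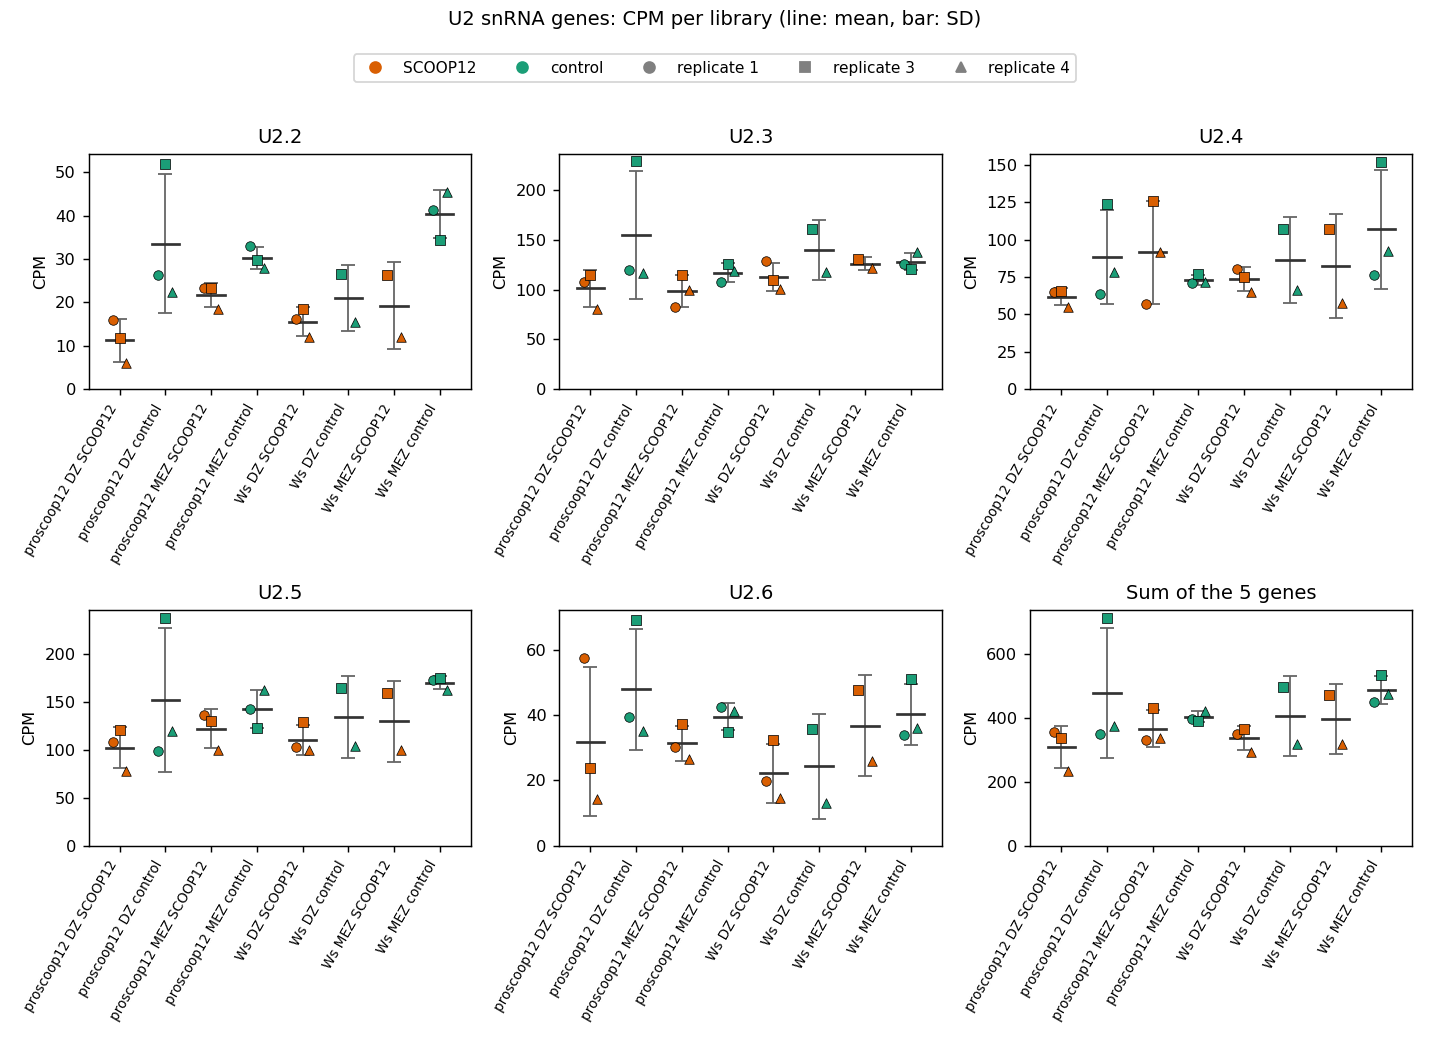
CPM of each U2 gene and of their sum in each of the 22 libraries, by group. Points are libraries (orange SCOOP12, green control, symbols by replicate number), horizontal lines group means and bars the SD; each panel starts at 0. The square at 712 CPM in the panel of the sum is proscoop12 DZ control replicate 3, and U2.2 is lower in proscoop12 DZ with SCOOP12 (6.12 to 16.0 CPM) than in its control (22.4 to 51.9 CPM).

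Treatment with SCOOP12, the peptide that the mutated gene encodes, was compared with water in each zone of each genotype, and in all 4 comparisons U2.2 had the log2 fold change farthest below 0 of the 5 genes. In proscoop12 DZ, U2.2 had 13, 12 and 6 reads with SCOOP12 (replicates 1, 3 and 4), against 22, 39 and 14 reads in control. As CPM these were 16.0, 11.9 and 6.12 with SCOOP12 and 26.3, 51.9 and 22.4 in control. All 3 SCOOP12 libraries lay below all 3 control libraries. In proscoop12 MEZ, U2.2 had 23.2, 23.3 and 18.5 CPM with SCOOP12 and 32.9, 29.8 and 27.9 CPM in control, again without overlap. In Ws MEZ it had 26.4 and 12.1 CPM with SCOOP12 (replicates 3 and 4) and 41.4, 34.4 and 45.3 CPM in control (replicates 1, 3 and 4). The SCOOP12 libraries again lay below the controls. In Ws DZ it had 16.1, 18.6 and 11.9 CPM with SCOOP12 and 26.4 and 15.6 CPM in control (replicates 3 and 4), and there the groups overlapped. U2.2 was lower with SCOOP12 in 10 of 10 pairs of libraries with the same genotype, zone and replicate number, by 0.35 to 2.12 on the log2 scale. U2.3 was lower in 9 of 10, U2.5 in 8, U2.4 in 7 and U2.6 in 7. The share of all loci with such a count was not computed, so these counts have no background beside them. They follow the labels of the 2 libraries whose file names give another group. By file name, the library with 51.9 CPM of U2.2 would stand in Ws DZ with SCOOP12, beside 26.4 CPM in the replicate 3 control. The one with 18.6 CPM would stand in proscoop12 DZ control, beside 11.9 CPM with SCOOP12. Pairs by file name were not counted.

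By the quasi-likelihood test of edgeR, with p-values adjusted over the 844 loci (Benjamini-Hochberg), 0 of the 5 U2 genes passed an adjusted p of 0.05 in any of the 4 comparisons of SCOOP12 with control. Of all loci, 1.3% passed in proscoop12 DZ, 0.829% in proscoop12 MEZ, 0.355% in Ws DZ and 0.237% in Ws MEZ. At an unadjusted p under 0.05 the counts of U2 genes were 2 (U2.2 and U2.3) in proscoop12 DZ, 0 in proscoop12 MEZ, 0 in Ws DZ and 1 (U2.2) in Ws MEZ, against 12.2%, 7.58%, 8.18% and 10.8% of all loci in the same order. With DESeq2, 1 gene (U2.2) passed in proscoop12 DZ, against 2.61% of all loci, and 0 in proscoop12 MEZ (1.18%), Ws DZ (0.474%) and Ws MEZ (0.592%). SCOOP12 libraries did not overlap with and lay below control libraries for U2.2 and U2.3 in proscoop12 DZ (6.75% of all loci), for U2.2 in proscoop12 MEZ (5.92%) and for U2.2 and U2.5 in Ws MEZ (14.8%), and for 0 of the 5 in Ws DZ (8.18%).

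The log2 fold change of U2.2 in proscoop12 DZ was -1.57 (SE 0.40, 95% interval -2.41 to -0.73), with an adjusted p of 0.0512 by edgeR, just above the threshold. With the replicate number as a block, which pairs the libraries in this comparison, the value was -1.56 and the adjusted p 0.00948, and 5.92% of all loci passed. The adjusted p was 0.0218 with the sequencing run as a covariate, 0.0389 with ribosomal loci left out and 0.0202 by DESeq2. Without the library labelled proscoop12 DZ control replicate 3, the value was -1.14 and the edgeR adjusted p 0.223. Without proscoop12 DZ SCOOP12 replicate 4, the value was -1.27 and the edgeR adjusted p 0.231, the highest of the 22 fits that each left out 1 library. Within replicates 1 and 3, which came from 1 sequencing run, it was -1.56 with an adjusted p of 0.320. Replicate 4 from the other run gave 1 library a group and differed by -1.87. The run was read from a number in the file names and is not in the labels. It divides the libraries into replicate 4 and replicates 1 and 3, so run and replicate cannot be told apart. The organellar ribosomal share was 22.5% to 38.2% with SCOOP12 and 36.1% to 43.9% in control in this comparison, and its part in the result was not tested beyond leaving ribosomal loci out. U2.2 also missed the threshold in the other 3 groups by edgeR, with -0.47 (SE 0.38, adjusted p 0.854) in proscoop12 MEZ, -0.44 (SE 0.44, adjusted p 0.904) in Ws DZ and -1.04 (SE 0.44, adjusted p 0.423) in Ws MEZ.

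The other 4 genes had smaller fold changes in proscoop12 DZ. U2.3 had 108, 115 and 80.5 CPM with SCOOP12 and 119.6, 229 and 117 CPM in control, a log2 fold change of -0.62 (SE 0.26). Its SCOOP12 libraries lay below the controls, the nearest pair being 115 and 117 CPM. U2.5 had 108, 121 and 78.5 CPM with SCOOP12 and 99.3, 238 and 120 CPM in control (-0.57, SE 0.31), and replicate 1 was higher with SCOOP12. U2.4 had 65.1, 65.5 and 55.04 CPM with SCOOP12 and 63.4, 124 and 78.3 CPM in control (-0.52, SE 0.34). U2.6 had 57.7, 23.8 and 14.3 CPM with SCOOP12 and 39.5, 69.2 and 35.2 CPM in control (-0.61, SE 0.45). For U2.4, U2.5 and U2.6 the groups overlapped, and edgeR's adjusted p of these 4 genes lay between 0.316 and 0.670. The sum of the 5 differed by -0.57 on the log2 scale, less than the combined SD of 0.66. That SD is the root of the variances between libraries, added over the groups compared. The sum differed by -0.27 without the library labelled proscoop12 DZ control replicate 3.

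Across the 4 combinations of genotype and zone, 19 of the 20 log2 fold changes of the U2 genes with SCOOP12 were below 0. The exception was U2.4 in proscoop12 MEZ, at 0.32 (SE 0.34). For 4 of the 5 genes all 4 values were below 0, which was true of 9.95% of the 844 loci. These counts follow the labels of the 2 libraries whose file names give another group. Without both, all 5 values in proscoop12 DZ stayed below 0, and those in Ws DZ are not given here. The members' medians were -0.61 in proscoop12 DZ, -0.25 in proscoop12 MEZ, -0.28 in Ws DZ and -0.37 in Ws MEZ, beside 0.05, -0.04, 0.05 and 0.00 over all loci. The 5 genes are not independent here, because their log2 CPM varied together, and why they did was not tested. Reads were also divided among near-identical copies. The estimates of U2.2 were near whole numbers, which does not show that it shared no reads. Pearson's r over the 22 libraries was 0.51 (U2.3 with U2.6) to 0.85 (U2.2 with U2.5), as a description of libraries that share run and depth.

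An average of SCOOP12 over the 4 combinations was added after these values had been seen, and in it U2.2 passed. Its log2 fold change was -0.88 (SE 0.21, 95% interval -1.32 to -0.45), with an adjusted p of 0.0123 by edgeR, among the 3.79% of loci that passed. DESeq2 also called 1 of the 5 genes (U2.2), among 4.86% of loci, and edgeR with the replicate block gave U2.2 -0.89 with an adjusted p of 0.00191, among 9.6% of loci. The call was lost within replicates 1 and 3 (-0.77, adjusted p 0.290), without Ws DZ control replicate 3 (-0.78, adjusted p 0.0712) and without Ws MEZ SCOOP12 replicate 4 (-0.78, adjusted p 0.0581). It held without both libraries whose file name gives another group (-0.81, adjusted p 0.0271). U2.3, U2.4, U2.5 and U2.6 did not pass, with averages of -0.30, -0.20, -0.37 and -0.30 and edgeR adjusted p between 0.257 and 0.618.

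**Figure D3:**
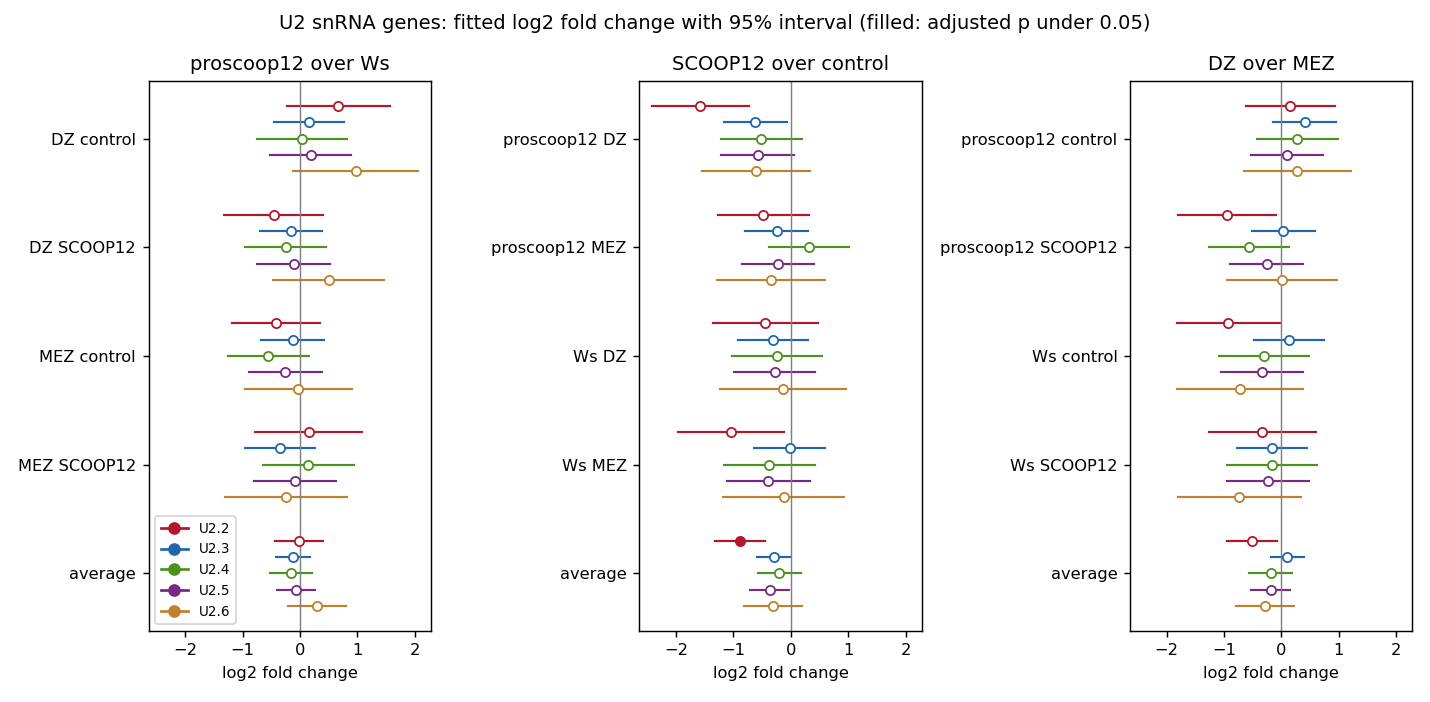
Fitted log2 fold changes of the 5 U2 genes, proscoop12 over Ws (left), SCOOP12 over control (middle) and DZ over MEZ (right), for each combination of the other 2 factors and for their average. Circles are edgeR estimates, lines 95% intervals, and filled circles have an adjusted p under 0.05. The filled circle is U2.2 in the average of SCOOP12 over control, at -0.88.

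The mutant was compared with Ws within each zone and treatment. With edgeR, 0 of the 5 U2 genes passed in any of the 4 comparisons, at an adjusted or an unadjusted p of 0.05, and DESeq2 called 0. Of all 844 loci, edgeR called 0% in DZ control, 0% in DZ with SCOOP12, 0.118% in MEZ control and 0.118% in MEZ with SCOOP12. DESeq2 called 0%, 0.118%, 0.118% and 0.118% in the same order, and 3.79%, 0.948%, 1.66% and 2.25% had an unadjusted edgeR p under 0.05. In DZ control, all 5 log2 fold changes were above 0, from 0.03 (SE 0.38) for U2.4 to 0.67 (SE 0.43) for U2.2 and 0.97 (SE 0.52) for U2.6. The adjusted p of U2.2 was 0.974 by edgeR. U2.6 had 39.5, 69.2 and 35.2 CPM in proscoop12 and 35.6 and 12.99 CPM in Ws (replicates 3 and 4), ranges that overlapped by less than 1 CPM. Without the library labelled proscoop12 DZ control replicate 3, the values of U2.3, U2.4 and U2.5 turned to -0.26, -0.31 and -0.31. The sum differed by 0.19 with that library and by -0.15 without it, beside a combined SD of 0.73 over both groups.

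In MEZ control all 5 values were below 0, from -0.03 for U2.6 to -0.55 (SE 0.34) for U2.4, and U2.2 and U2.5 did not overlap between the groups (3.55% of all loci did not, and were lower). U2.2 had 32.9, 29.8 and 27.9 CPM in proscoop12 and 41.4, 34.4 and 45.3 CPM in Ws (-0.41, SE 0.37). U2.5 had 142.7, 123 and 162 CPM in proscoop12 and 173.1, 176 and 163 CPM in Ws (-0.26, SE 0.30). With SCOOP12, the median of the 5 genes was -0.16 in DZ and -0.09 in MEZ, where U2.3 alone did not overlap (6.64% of all loci). U2.3 had 82.5, 114 and 99.5 CPM in proscoop12 MEZ and 131 and 121 CPM in Ws MEZ with SCOOP12.

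The differentiation zone was compared with the meristematic-elongation zone within each genotype and treatment. By edgeR, 0.948% of all loci passed in proscoop12 with SCOOP12 and 0.948% in Ws with SCOOP12, and 19.8% in proscoop12 control and 18.4% in Ws control. Of the 5 U2 genes, 0 passed in any of them. At an unadjusted p under 0.05 the count was 1 (U2.2) in proscoop12 with SCOOP12 and in Ws control, and 0 in the other 2, beside 15.5% of all loci in proscoop12 with SCOOP12, 32.8% in proscoop12 control, 9.95% in Ws with SCOOP12 and 32% in Ws control. DESeq2 called 0 in all 4, beside 2.73% of all loci in proscoop12 with SCOOP12, 20.7% in proscoop12 control, 1.9% in Ws with SCOOP12 and 18.4% in Ws control. 

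U2.2 in Ws control had 26.4 and 15.6 CPM in DZ and 41.4, 34.4 and 45.3 CPM in MEZ (-0.93, SE 0.43, edgeR adjusted p 0.144), without overlap (24.5% of all loci did not, and were lower). In proscoop12 with SCOOP12 it had 16.0, 11.9 and 6.12 CPM in DZ and 23.2, 23.3 and 18.5 CPM in MEZ (-0.94, SE 0.41, adjusted p 0.268), again without overlap (10.3% of all loci). In proscoop12 control, however, it had 26.3, 51.9 and 22.4 CPM in DZ and 32.9, 29.8 and 27.9 CPM in MEZ. The log2 fold change there was 0.16 (SE 0.37), and -0.24 without the library labelled proscoop12 DZ control replicate 3. All 5 genes had values above 0 in proscoop12 control, at 0.10 to 0.40, and 4 of 5 below 0 in Ws control, where U2.3 had 0.13. Averaged over the 4 combinations, an average again added after seeing the data, U2.2 had -0.51 (SE 0.21, edgeR adjusted p 0.0575), beside 37.8% of loci that passed. It passed by edgeR with the replicate block (adjusted p 0.0210, 47.4% of loci), with the run as covariate (0.0250) and without both libraries whose file name gives another group (-0.62, adjusted p 0.0272). It did not pass by edgeR with ribosomal loci left out (adjusted p 0.0808) or without the count filter (0.234), nor by DESeq2 (0.0755). The value was -0.35 within replicates 1 and 3 and -0.34 without Ws MEZ SCOOP12 replicate 3.

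Whether an effect differed between genotypes was tested as an interaction. Of the 5 U2 genes, 0 passed for genotype by zone in control, 0 for genotype by SCOOP12 in DZ and 0 for genotype by SCOOP12 in MEZ with edgeR, at an adjusted or an unadjusted p of 0.05. DESeq2 called 0 genes in each, and both tools called 0% of all loci, while 3.2%, 2.49% and 1.78% had an unadjusted edgeR p under 0.05. U2.2 had 1.08 (SE 0.57) for genotype by zone, -1.13 (SE 0.60) for genotype by SCOOP12 in DZ and 0.57 (SE 0.58) for genotype by SCOOP12 in MEZ. A difference between proscoop12 and Ws in the response of U2.2 to SCOOP12 is therefore not shown in either zone.

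The 5 genes are part of a larger family in the same tables. Besides them, 18 listed loci carry the name U2, and U2 sequence was found at 8 of these and not at the other 10. Some of those 10 repeat a member's name: AT3G08695 (U2.6, 685 reads), AT3G08945 (U2.2*, 486), AT3G09005 (U2.3, 3) and AT3G08735 (U2.4, 0). With SCOOP12 in proscoop12 DZ, edgeR gave AT3G08945 a log2 fold change of 0.34 (SE 0.51) and AT3G08695 0.086 (SE 0.32). They were kept apart from the members. A further 6 listed loci hold U2 sequence under another name, 2 of them on the opposite strand, a set found after the data had been seen. In proscoop12 DZ, all 5 tested other loci named U2 with U2 sequence were below 0 with SCOOP12 (median -0.63). All 4 tested loci of another name were too (median -0.80), beside 46.6% of all loci. At an unadjusted edgeR p under 0.05 the counts were 1 and 4, beside 12.2% of all loci, and edgeR and DESeq2 called 0 in both lists. The 5 genes held 35.4% of all estimated reads on loci with U2 sequence, the 8 other loci named U2 44.0% and the 6 loci of another name 20.7%. The 5 genes' share lay between 31.6% and 40.0% in every library. Single loci with most reads were U2.11 (3256 reads), U2.1 (2536), U2.5 (2444) and U2.3 (2218), while U2.9, U2.14 and U2.17 are listed at 0.

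**Figure D4:**
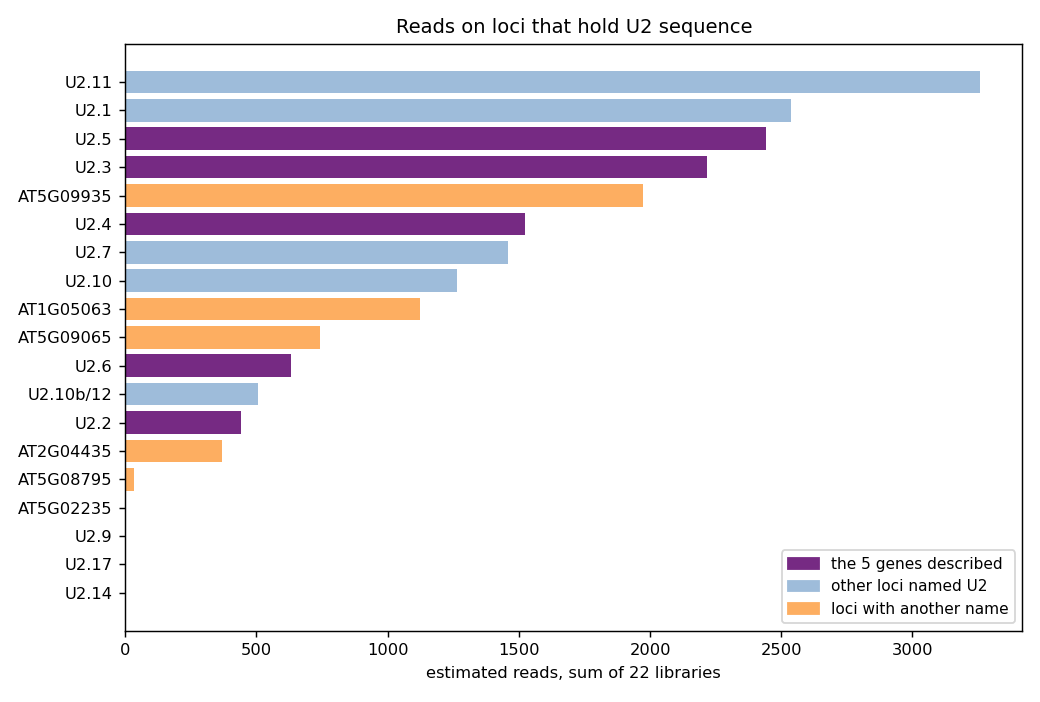
Estimated reads summed over the 22 libraries for each listed locus that holds U2 sequence. Purple bars are the 5 genes described, blue bars other loci named U2 and orange bars loci of another name; U2.2 had 440 reads and U2.11, the highest, 3256.

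Adding these loci gave the estimated reads of all listed loci found to hold U2 sequence, flanks and the 2 loci on the opposite strand included. A further U2 match in the genome, at chr2:8802090-8802284, lay in none of them. Their sum was 858 ± 162 CPM in proscoop12 DZ with SCOOP12 and 1348 ± 563 CPM in proscoop12 DZ control (SD, n = 3 each). It was 1027 ± 168 and 1155 ± 144 CPM in proscoop12 MEZ with SCOOP12 and in control (n = 3 each). In Ws DZ it was 952 ± 183.8 CPM with SCOOP12 (n = 3) and 1056 ± 376 CPM in control (n = 2). In Ws MEZ it was 1110 ± 303 CPM with SCOOP12 (n = 2) and 1455 ± 145 CPM in control (n = 3). By the labels, the mean was lower with SCOOP12 in all 4, as it was for the 5 genes, and the 2 sums rest on the same libraries. The library labelled proscoop12 DZ control replicate 3 had 1984 CPM, beside 914 and 1146 CPM in the other libraries of its group. By its file name it would belong to Ws DZ with SCOOP12, and means by file name were not computed. In the average of SCOOP12, edgeR called 0 of the 5 tested loci named U2 with U2 sequence (median -0.31, all 5 below 0) and 0 of the 4 tested loci of another name (median -0.42, all 4 below 0). At an unadjusted p under 0.05 these counts were 0 and 2, beside 3 of the 5 members and 136 of all 844 loci, and DESeq2 called 0 and 0. EdgeR and DESeq2 both called 0 of the 2 tested loci named U2 without U2 sequence (median -0.02). In the average of zones edgeR called 1 of the 4 loci of another name, AT5G09065, beside 37.8% of all loci. It was lower in DZ by 0.77 on the log2 scale (adjusted p 0.000881).

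Other small RNAs of splicing were counted by the same annotation names. In the average of SCOOP12, edgeR called 0 of 8 tested U1 loci (median 0.13), 0 of 2 U4 loci (-0.31), 0 of 1 U6 locus (0.29) and 0 of 1 U12 locus (0.01). It called 0 of 2 loci of U3, a nucleolar RNA of ribosomal RNA processing (-0.10). At an unadjusted p under 0.05 the count was 0 in each of these lists, and DESeq2 called 0. The median over all loci was 0.05. U11 and 7SL were not analysed here, and the U5, U4atac and U6atac loci had too few reads to be tested. Between zones edgeR called 1 U1 locus, U1.8, lower in DZ of Ws control (-2.34, adjusted p 0.0423) and in the average (-0.999, adjusted p 0.0322). Of all loci, 18.4% and 37.8% passed there. DESeq2 called 0 U1 loci in Ws control and 1 in the average. U1.8 had few reads, with 1.30 to 3.45 CPM in Ws DZ control and 7.82 to 21.4 CPM in Ws MEZ control. U1 pairs with the 5′ splice site, and U4, U5 and U6 join the spliceosome as a unit.

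By Pearson's r of log2 CPM over the 22 libraries, the loci most like the sum of the 5 genes were AT5G09935 (r = 0.89), AT1G05063 (0.80), U3D (0.79), U1.4 (0.76) and AT4G05185 (0.76), among 832 loci not named U2 with a median r of -0.02. AT5G09935 and AT1G05063 are among the 6 loci that hold U2 sequence under another name, so they can share reads with the 5 genes. Their RNAs were 94.4% and 94.3% identical to U2.5. These correlations rest on libraries that share run, depth and ribosomal content and are given as a description.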

How the data were processed

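RNA of 22 root samples in 8 groups was sequenced as paired reads from a stranded mRNA kit, per the labels' protocols. Salmon and DESeq2 are the tools named in the submitters' processing notes. Their versions, the build, the annotation and the strand setting were not stated there. The authors deposited estimated counts per listed transcript, per the file headers, and the deposited TPM values were used only to compare genes per listed length. The 5 listed lengths equal those of RefSeq's annotation of TAIR10.1, which gave names, positions and sequences.

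Estimated counts were rounded and fitted with 1 mean for each of the 8 groups and all 22 libraries. The tools were R 4.3.3, limma 3.58.1 and edgeR 4.0.16 with TMM, filterByExpr (minimum count 10, minimum total 15), the quasi-likelihood F test and Benjamini-Hochberg adjustment over 844 loci. The fit was tested on simulated data. SE was taken from F as the size of the log2 fold change divided by the root of F. CPM are counts per 1000000 after TMM. DESeq2 1.42.0 was an alternative. U2 sequence was located with blastn 2.17.0 (at least 90 aligned bases in a locus). The sum of the members got no test. Members, lists and tests were chosen with earlier results of these data known. Named were all 5 members, small RNA lists by annotation name, and the 5 loci most correlated with the sum.

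Of 20 replicate pairs, chi-square per degree of freedom was 6.98 to 352 and r 0.893 to 0.951, so none was the same library sequenced again. These values cannot tell whether libraries of a pair were made from the same RNA. After group means were removed, same-number replicates correlated above 0.1 in every pair of 6 comparisons with 3 pairs each, 0.255 to 0.450 for SCOOP12 in proscoop12 DZ, which were taken as paired. Other alternatives were RLE factors, no count filter, ribosomal loci left out, the run as read from the file names, 1 zone alone, and each library left out.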

Additional observations from a re-analysis of the deposited data

How the results depend on the processing

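No U2 gene passed in the 12 pairwise comparisons and 3 interactions as reported, and these counts of 0 changed in 1 of them. For SCOOP12 against control in proscoop12 DZ the count was 1 (U2.2) with ribosomal loci left out, with the replicate block, with the sequencing run as covariate and with DESeq2, and 0 to 1 when each library was left out. The counts of 1 came without Ws MEZ SCOOP12 replicate 3, Ws MEZ SCOOP12 replicate 4 or proscoop12 DZ control replicate 4, and the adjusted p of U2.2 ran from 0.0346 to 0.231 over the 22 fits. In the averages, the count for SCOOP12 was 0 within replicates 1 and 3 and 0 to 1 when each library was left out. The count for zones was 1 (U2.2) with the replicate block, with the run as covariate and without both libraries whose file name gives another group, and 0 to 1 when each library was left out, with 1 without proscoop12 DZ SCOOP12 replicate 1, Ws DZ control replicate 3, proscoop12 DZ control replicate 3 or Ws MEZ SCOOP12 replicate 4. The cause was not tested. The replicate block changed no other call of a U2 gene.

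Directions of single genes that turned had no call. Without both libraries whose file name gives another group, proscoop12 against Ws in DZ control became -0.26 (U2.3), -0.31 (U2.4) and -0.31 (U2.5), and DZ against MEZ in proscoop12 control became -0.24 (U2.2), -0.31 (U2.5) and -0.018 (U2.6). Genotype by zone became -0.13 (U2.3) and -0.055 (U2.5), and genotype by SCOOP12 in DZ became 0.070 (U2.3), 0.069 (U2.4), 0.31 (U2.5) and 0.27 (U2.6). U2.4 in proscoop12 against Ws, DZ control, was -0.00285 with the run as covariate and -0.17 within replicates 1 and 3. With each library left out in turn, values ran for proscoop12 against Ws in DZ control from -0.26 to 0.39 (U2.3), from -0.31 to 0.42 (U2.4), from -0.31 to 0.55 (U2.5). Those values ran for DZ against MEZ in proscoop12 control from -0.24 to 0.45 (U2.2), from -0.31 to 0.33 (U2.5), from -0.017 to 0.53 (U2.6). Those values ran for genotype by zone from -0.13 to 0.52 (U2.3), from -0.052 to 0.81 (U2.5). Those values ran for genotype by SCOOP12 in DZ from -0.56 to 0.094 (U2.3), from -0.67 to 0.054 (U2.4), from -0.67 to 0.19 (U2.5), from -1.38 to 0.062 (U2.6). The log2 difference of the sum moved by less than its combined SD under all 180 alternatives. That SD adds the variances of all groups compared and was often wider than the difference, so this does not show stability. The sign of the difference turned for proscoop12 against Ws in DZ control (-0.15 to 0.51, combined SD 0.73). It also turned for DZ against MEZ in proscoop12 control (-0.090 to 0.44, combined SD 0.57) and genotype by SCOOP12 in DZ (-0.65 to 0.075, combined SD 0.82). Read numbers of 6 to 39 for U2.2 limit its precision.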
